A study of Homo sapiens with 9 samples.

Results

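The solute carriers that move sugars, inorganic ions, metals, vitamins, nucleosides, organic anions and lipids were followed in HepG2 cells with glutamine (Gln) added or withdrawn. Members were selected on their measured level: a gene symbol that begins with SLC and a family number, and a mean of at least 1 FPKM (fragments scaled by gene length and library total, a level per length) over the 9 libraries. The families whose main substrates are amino acids (SLC1, SLC3, SLC6, SLC7, SLC36, SLC38 and SLC43) and the mitochondrial SLC25 family were left out. The rule gave 137 members among the 241 SLC genes outside those families, in a table of 22587 genes, and the other 104 had a mean under 1 FPKM. The members nearest the threshold were SLC10A7 at 1.05, SLC22A9 at 1.13 and SLC22A18AS at 1.29 FPKM, and the genes just below it were SLC19A3 at 0.896, SLC27A1 at 0.836 and SLC16A4 at 0.819 FPKM. A high level is therefore how the members were found, while the differences between groups were not used to find them. Some symbols that meet the rule do not name a carrier: SLC2A4RG is a transcription factor, SLC9A3R1 and SLC9A3R2 are scaffold proteins, SLC4A1AP is an adaptor protein, and SLC22A18AS lies antisense to SLC22A18.

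HepG2 is a human hepatoblastoma-derived liver cell line grown here in high-glucose DMEM with serum, and no gene was altered in these cultures. The groups were Gln added, Gln-deprived for 12 h and Gln-deprived for 24 h, with 3 RNA-seq libraries each. The sample labels give GlutaMAX, a stable Gln dipeptide, to the Gln-added cultures, whereas the protocol text names it in the medium of the deprivation experiment, and the labels do not give the time in culture of the Gln-added cells. Time in culture and time without Gln can therefore not be told apart, and since nothing states that the 3 libraries of a group came from separate cultures, p-values measure the spread between these libraries.

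The libraries held 29618771 to 36258403 fragments on genes, and the members took 1.01% to 1.06% of them. All 8 liver cell markers, among them ALB, AFP and APOB, were at or above 1 FPKM in each group, and their summed level was 7381 to 7481 FPKM with Gln, 6473 to 6539 at 12 h and 6258 to 6581 at 24 h. ALB, AFP, APOA1, SERPINA1 and FGB were called lower at both times (AFP by 0.31 and 0.51 on the log2 scale), while APOB, TTR and HNF4A were not called. Of 7 measured markers of other cell types, CD14 and EPCAM reached 1 FPKM and the other 5 averaged at most 0.286 FPKM in any group, COL1A1, COL3A1 and KRT7 each being listed at 0 throughout a single group. The sum lay between 143 and 156 FPKM, nearly all of it EPCAM, which was not called at either time. The level of EPCAM alone does not show that other cells were present. In bulk RNA, fewer cells that express a gene and less of its RNA per cell cannot be told apart.

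Solute carriers are membrane proteins that let a substrate down its gradient or couple its movement to sodium, protons or another solute. In liver cells they take up glucose, lactate, citrate, vitamins and bile acids, hold cytosolic zinc, iron and copper within limits, and set cell volume and pH through chloride, potassium, sodium and bicarbonate. Carriers inside the cell supply the endoplasmic reticulum and Golgi with nucleotide sugars, acetyl-CoA and glucose-6-phosphate.

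With Gln present, the 137 members together amounted to 2471 to 2520.5 FPKM per library, 0.641% to 0.650% of all FPKM, and the 5 highest members held 30.0% to 30.1% of that sum. Those were SLC9A3R1, SLC39A14, SLC2A1, SLC16A3 and SLC39A7, which averaged 187, 171, 162, 129.6 and 100.2 FPKM. The median member was at 6.89 FPKM. SLC10A1, the bile salt importer that marks the mature hepatocyte, was below the threshold, at 0.0328 FPKM in the Gln-added cells.

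After 12 h without Gln, 44 members rose, 56 fell and 37 were not called at an adjusted p under 0.05 (limma on log2(FPKM + 0.1), Benjamini-Hochberg adjustment over 11880 genes). Over all genes tested, 29.1% rose and 31.0% fell, so the members' 32.1% and 40.9% stood beside a background in which most genes were called. After 24 h, 46 members rose and 53 fell, against 33.0% and 31.7% of all genes. The median member changed by −0.05 on the log2 scale at either time, and the median gene by −0.02 at 12 h and 0.01 at 24 h. The libraries of the groups did not overlap for 108 members at 12 h and 108 at 24 h, where 67.2% and 69.9% of all genes tested did not overlap.

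Few members changed at least 2-fold. At 12 h SLC17A2 rose that far, as 2.00% of all genes did, and SLC16A13, SLC22A7 and SLC2A3 fell that far, as 1.94% did. At 24 h no member rose at least 2-fold (3.21% of all genes) and 6 fell (2.83% of all genes), namely SLC22A7, SLC2A3, SLC23A1, SLC16A13, SLC51A and SLC5A9. The Gln-added libraries served as controls of both comparisons, so the values of the 12 h and 24 h comparisons are given side by side and their likeness is not read as a second observation.

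**Figure D1:**
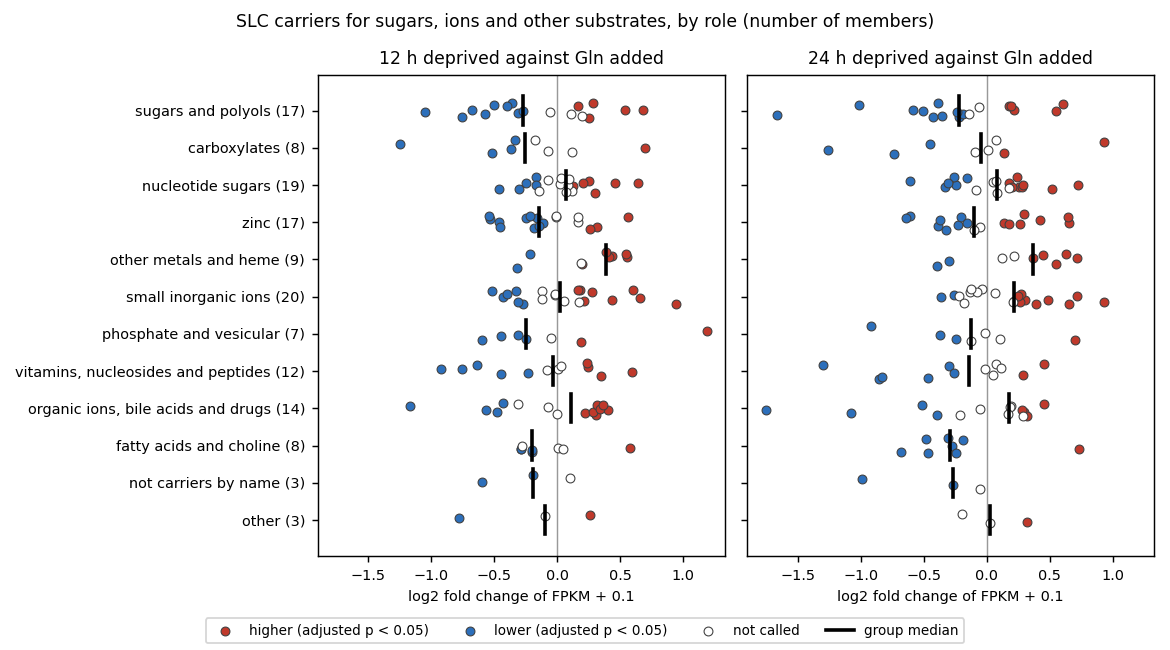
Log2 fold change of each of the 137 members (points) at 12 h (left) and 24 h (right) of Gln deprivation against Gln added, on the log2(FPKM + 0.1) scale, with members grouped by substrate and the black bar at the group median. Filled points passed an adjusted p of 0.05. The group of other metals and heme has a median of 0.39 at 12 h and 0.37 at 24 h, while sugars and polyols have −0.27 and −0.22.

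The groups by substrate moved both ways, and their counts stand beside the 29.1% of all genes that rose and 31.0% that fell at 12 h, and 33.0% and 31.7% at 24 h. Of 17 carriers of sugars and polyols, 5 rose (29.4%) and 9 fell (52.9%) at 12 h, and the median was −0.27. Of 9 carriers of metals other than zinc and of heme, 6 rose and 2 fell, with a median of 0.39. Of 20 members listed under small inorganic ions, of which the adaptor SLC4A1AP is not a carrier and was called higher at both times, 8 rose and 6 fell at 12 h (median 0.02), and 10 rose and 2 fell at 24 h (median 0.21). Of 8 carriers of fatty acids and choline, 1 rose and 4 fell at 12 h, and 1 rose and 7 fell at 24 h. These are descriptions of the lists, whose members are not replicates of a condition.

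RefSeq promoter windows (GRCh38.p14) were matched by symbol for 103 of the 137 members, and the 250 bases before each gene's RefSeq start were searched on both strands for the letters TGATGNAA (amino acid response element), TGANTCA (AP-1), CACGTG (E-box), TGCGCNC (a form of the metal response core) and GCGTGGGCG (EGR). Other forms of the metal response core were not searched, so its counts cover that form alone. TGATGNAA stood before 2 members (1.94%), SLC27A5 and SLC51B, and before 1.31% of the tested genes with a window. CACGTG stood before 6 members (5.83%, against 8.99% of tested genes) and TGCGCNC before 23 (22.3%, against 26.5%). TGANTCA stood before 6 members (5.83%, against 3.70%), and GCGTGGGCG before 1, SLC11A2 (0.971%, against 1.18%). In the whole window table of 27305 genes the shares were 3.19% for TGATGNAA, 6.60% for TGANTCA, 6.49% for CACGTG, 16.9% for TGCGCNC and 0.710% for GCGTGGGCG. A match is a run of letters and not a shown binding site.

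Promoters of 4 members are printed 5′ to 3′ because members with the same letters moved in opposite directions. The windows lie at chr5:1112064-1112313 on the minus strand (SLC12A7), chr6:44219365-44219614 on the plus strand (SLC29A1), chr19:2740077-2740326 on the minus strand (SLC39A3) and chr2:27275347-27275596 on the minus strand (SLC30A3). Capitals mark matches, which are CACGTG in SLC12A7 and SLC29A1, and TGCGCNC or its reverse complement in SLC12A7, SLC39A3 and SLC30A3:
SLC12A7: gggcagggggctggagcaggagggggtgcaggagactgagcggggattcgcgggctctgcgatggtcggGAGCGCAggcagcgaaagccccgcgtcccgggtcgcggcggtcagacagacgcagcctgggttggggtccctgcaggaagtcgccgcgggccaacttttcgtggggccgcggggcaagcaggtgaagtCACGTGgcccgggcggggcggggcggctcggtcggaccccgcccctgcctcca
SLC29A1: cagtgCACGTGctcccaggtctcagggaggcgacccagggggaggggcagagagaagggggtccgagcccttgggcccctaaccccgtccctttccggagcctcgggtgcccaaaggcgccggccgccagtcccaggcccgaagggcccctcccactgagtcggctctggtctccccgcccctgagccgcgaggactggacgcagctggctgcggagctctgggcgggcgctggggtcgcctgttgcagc
SLC39A3: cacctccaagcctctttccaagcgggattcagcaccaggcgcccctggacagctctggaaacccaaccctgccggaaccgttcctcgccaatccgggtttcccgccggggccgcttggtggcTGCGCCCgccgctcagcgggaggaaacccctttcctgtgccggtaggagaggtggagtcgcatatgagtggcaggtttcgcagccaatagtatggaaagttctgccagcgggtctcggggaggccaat
SLC30A3: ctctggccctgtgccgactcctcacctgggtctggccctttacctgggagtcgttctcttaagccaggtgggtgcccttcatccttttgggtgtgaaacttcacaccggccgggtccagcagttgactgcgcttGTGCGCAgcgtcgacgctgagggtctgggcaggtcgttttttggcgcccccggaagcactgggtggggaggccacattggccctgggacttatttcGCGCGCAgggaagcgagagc

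SLC12A7, a potassium-chloride cotransporter, stood at 9.10, 9.64 and 10.1 FPKM with Gln, 14.8, 15.9 and 14.9 at 12 h, and 16.0, 15.1 and 14.6 at 24 h. SLC29A1, the equilibrative nucleoside carrier of the plasma membrane, went from 33.1, 35.3 and 33.2 FPKM to 21.9, 21.8 and 21.5 and then 18.2, 19.6 and 18.3. The groups with and without Gln did not overlap for either gene. The CACGTG of SLC12A7 began 53 bases before its RefSeq start and that of SLC29A1 245 bases before its own. SLC39A3, a zinc importer, rose by 0.26 and 0.27 on the log2 scale at 12 h and 24 h (adjusted p = 0.00058 and 0.00043). Another annotated gene shares 17.6% of its 100-base stretches, so part of its level is uncertain. SLC30A3, a zinc exporter, fell by 0.46 and 0.60 (adjusted p = 0.015 and 0.0030), with 1 overlapping pair of libraries at 12 h, at 1.62 FPKM with Gln and 1.68 without.

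The sugar carriers at the highest levels belong to the facilitative SLC2 (GLUT) family, whose proteins let hexoses move down their gradient. SLC2A1 (GLUT1), the widely expressed glucose carrier, was at 162, 167 and 157 FPKM with Gln, 241, 239.6 and 223 at 12 h, and 249, 249 and 240.1 at 24 h. All deprived libraries were above all Gln-added libraries, and SLC2A1 rose by 0.54 ± 0.04 (log2 fold change ± SE, adjusted p = 1.1e-06) at 12 h and 0.61 ± 0.04 (adjusted p = 2.8e-07) at 24 h. An unnamed gene on the opposite strand overlaps 7.51% of its exonic bases.

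SLC2A3 (GLUT3), a high-affinity glucose carrier, went the other way. Its levels were 62.9, 63.3 and 63.7 FPKM with Gln, 30.2, 30.6 and 30.9 at 12 h, and 19.3, 19.97 and 20.4 at 24 h, so that no groups overlapped. SLC2A3 fell by 1.05 ± 0.03 on the log2 scale at 12 h (adjusted p = 2.3e-09) and by 1.66 ± 0.03 at 24 h (adjusted p = 1e-10), and by 0.62 between the 2 times (adjusted p = 3.1e-06). The gene lies at chr12:7919230-8019007 on the minus strand (GRCh38, GENCODE 44), beside SLC2A14 at chr12:7812512-7891148 on the same strand, which shares sequence with it: 2.75% of 100-base stretches of SLC2A3 and 6.23% of those of SLC2A14 are the same in both, so a small part of their reads could have been assigned to either. SLC2A14 stood far lower, at 3.14 ± 0.0692 FPKM with Gln (SD, n = 3), 3.85 ± 0.331 at 12 h and 2.69 ± 0.230 at 24 h, and was called higher at 12 h (0.28) and lower at 24 h (−0.22), the latter call being lost under 8 of 19 alternative settings.

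SLC2A8 (GLUT8), a glucose carrier kept mainly on internal membranes, rose and then came down. It was at 23.0, 22.3 and 23.2 FPKM with Gln, 37.9, 36.9 and 34.8 at 12 h, and 26.4, 24.9 and 26.3 at 24 h. The 12 h libraries stood above all others (0.68 ± 0.04, adjusted p = 3.3e-07), and the 24 h libraries were still above the Gln-added ones by 0.18 (adjusted p = 0.0034).

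The 10 carriers of the SLC2 family summed to 275 ± 4.60 FPKM with Gln (SD, n = 3), 327 ± 12.0 at 12 h and 319 ± 4.45 at 24 h. SLC2A1 held 58.8% of that sum with Gln, 71.7% at 12 h and 77.2% at 24 h, while the share of SLC2A3 went from 23.1% to 9.34% and 6.25%. FPKM are levels per length, so these shares compare transcripts and not proteins.

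**Figure D2:**
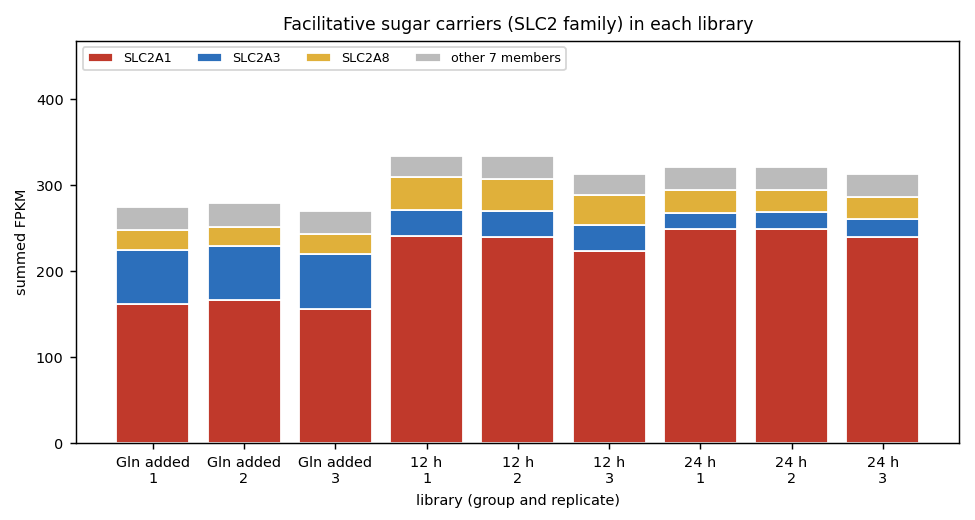
Summed FPKM of the 10 SLC2 carriers in each of the 9 libraries (bars, x axis: group and replicate), split into SLC2A1, SLC2A3, SLC2A8 and the other 7. The SLC2A1 segment grows from about 162 to 246 FPKM on average, and the SLC2A3 segment shrinks from 63.3 to 19.9 FPKM.

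Several sugar carriers at lower levels fell. SLC2A2 (GLUT2), the main hepatocyte glucose carrier, was at 4.25, 3.88 and 4.08 FPKM with Gln, 2.71, 2.39 and 3.05 at 12 h, and 2.59, 3.12 and 2.83 at 24 h, a fall of 0.57 and 0.50 on the log2 scale (adjusted p = 0.00044 and 0.00089). SLC37A4, which brings glucose-6-phosphate into the endoplasmic reticulum for the last step of glucose release, averaged 18.9 ± 0.897 FPKM with Gln, 11.8 ± 1.01 at 12 h and 12.5 ± 0.251 at 24 h (SD, n = 3), and fell by 0.68 and 0.59. Of the liver cell markers, ALB, AFP, APOA1, SERPINA1 and FGB were lower as well at both times, while APOB, TTR and HNF4A were not called. Any link to the falls of liver carriers was not tested. SLC5A9, a sodium-coupled hexose carrier, fell by 0.75 at 12 h and 1.01 at 24 h, from 5.79 to 3.40 and 2.83 FPKM. SLC2A4 (GLUT4), the insulin-responsive carrier, fell by 0.50 and 0.43 from 1.99 FPKM, and SLC50A1 fell by 0.40 and 0.39 from 15.6 FPKM. The myo-inositol carrier SLC5A3 fell by 0.27 at 12 h (adjusted p = 0.026, a call lost under 6 of 19 alternative settings, among them leaving out any 1 of the Gln-added libraries) and changed by −0.14 at 24 h (adjusted p = 0.21).

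Genes that act on glucose uptake moved as well. TXNIP and ARRDC4, related arrestins that lower glucose uptake, rose by 1.75 and 1.60 at 12 h and by 1.89 and 1.76 at 24 h, TXNIP from 10.7 to 36.0 and 39.7 FPKM. HK2, the hexokinase that traps glucose in many tumour cells, rose from 31.8 to 45.9 FPKM at 12 h (0.53) and stood at 35.5 FPKM at 24 h (0.16), while HK1 averaged at most 0.136 FPKM in any group.

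Among carriers of carboxylates, SLC16A13, a monocarboxylate carrier of the lactate family, fell most. Its libraries were at 16.2, 19.7 and 16.7 FPKM with Gln, 7.69, 7.02 and 7.17 at 12 h, and 6.63, 8.43 and 6.79 at 24 h. The fall was 1.25 ± 0.10 at 12 h (adjusted p = 1.6e-06) and 1.26 ± 0.10 at 24 h (adjusted p = 1e-06), without overlap. SLC16A5, of the same family, rose from 4.26, 4.40 and 3.97 FPKM to 7.31, 7.12 and 6.30 at 12 h and 8.80, 7.99 and 7.61 at 24 h (0.70 and 0.93, adjusted p = 1.6e-05 and 1.3e-06).

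The abundant lactate carriers moved little. SLC16A3 (MCT4), which exports lactate, averaged 129.6, 123 and 122 FPKM in the 3 groups, differences of −0.07 (95% CI −0.16 to 0.01) and −0.09 (−0.17 to −0.01), with adjusted p = 0.10 and 0.051. SLC16A1 (MCT1) averaged 39.9, 43.4 and 43.8 FPKM and passed the test at 24 h alone (0.14, adjusted p = 0.037), with overlapping libraries and a call lost under 7 of 19 alternative settings. BSG, the chaperone both need at the cell surface, was not called at 12 h (−0.07) and was called lower at 24 h (−0.14). Of the mitochondrial pyruvate carrier subunits, MPC1 fell by 0.76 and 0.79 and MPC2 by 0.36 and 0.61.

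The sodium-coupled carriers of citrate and dicarboxylates fell together. SLC13A5, the citrate importer of the liver cell, averaged 37.4 ± 0.426 FPKM with Gln, 26.1 ± 1.24 at 12 h and 27.5 ± 1.05 at 24 h, a fall of 0.52 and 0.45 (adjusted p = 3e-06 and 6.8e-06). SLC13A3, which carries succinate and other dicarboxylates, fell by 0.37 and 0.74, from 15.6 to 12.0 and 9.29 FPKM. SLC33A1, which brings acetyl-CoA into the endoplasmic reticulum, was at 4.37, 4.45 and 4.74 FPKM at 12 h against 5.64, 5.75 and 5.80 with Gln, and at 5.52, 6.23 and 6.34 at 24 h. Its 12 h libraries lay below all others, but 40.4% of its 100-base stretches are shared with other annotated genes, so its level is uncertain.

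The SLC35 family, with 19 members, is best known for carrying nucleotide sugars into the Golgi and endoplasmic reticulum. At 12 h 6 rose (31.6%) and 5 fell (26.3%), near the 29.1% and 31.0% of all genes. At 24 h 8 rose (42.1%) and 6 fell (31.6%), beside 33.0% and 31.7% of all genes. SLC35F2 changed most, from 7.49, 7.24 and 7.62 FPKM to 12.0, 11.9 and 11.0 at 12 h and 13.5, 11.7 and 12.1 at 24 h (0.64 and 0.73). SLC35F6 rose by 0.46 and 0.52, and SLC35G1 fell by 0.46 and 0.61 from 2.58 FPKM. SLC35A1, the CMP-sialic acid carrier, rose by 0.25 and 0.18, and its level is uncertain because 55.5% of its exonic bases lie under another gene on the same strand. SLC35B1, which brings ATP into the endoplasmic reticulum, fell by 0.17 and 0.33 from 30.3 FPKM, with the call at 12 h lost under 8 of 19 alternative settings.

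The 17 zinc carriers comprise SLC30 exporters, which move zinc out of the cytosol, and SLC39 importers, which move it in. SLC30A1, the exporter of the plasma membrane, was at 29.4, 26.7 and 28.9 FPKM with Gln, 39.5, 40.6 and 45.8 at 12 h, and 38.6, 47.8 and 48.4 at 24 h. All deprived libraries were higher (0.56 ± 0.09 and 0.66 ± 0.09, adjusted p = 0.00024 and 6.1e-05). Among the other 6 SLC30 members at 12 h none rose and 4 fell, beside 29.1% and 31.0% of all genes tested, with SLC30A9 lower by 0.54. SLC30A10, an exporter of manganese, changed by 0.16 and −0.05 and was not called at either time.

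SLC39A14, the most abundant metal carrier and an importer of zinc, manganese and iron, was at 169, 172 and 171 FPKM with Gln, 213, 209.9 and 216 at 12 h, and 227, 228 and 232 at 24 h. The groups did not overlap, and the rise was 0.32 ± 0.03 at 12 h and 0.42 ± 0.03 at 24 h (adjusted p = 4.5e-06 and 3.7e-07). SLC39A4, the importer known from intestinal zinc uptake, fell by 0.54 and 0.64, from 28.5, 29.5 and 28.5 FPKM to 19.3, 20.3 and 19.8 and then 19.7, 17.5 and 18.5. SLC39A7, which releases zinc from the endoplasmic reticulum, was called lower at 12 h (−0.12) and higher at 24 h (0.18), at 100.2, 92.5 and 113 FPKM in the 3 groups. The 10 importers summed to 435 ± 3.39 FPKM with Gln, 448 ± 1.80 at 12 h and 487 ± 8.25 at 24 h, and the 7 exporters to 74.5 ± 1.97, 83.0 ± 5.55 and 87.0 ± 8.14 FPKM. SLC39A1, which held 9.73% of the importer sum with Gln, shares 76.8% of its 100-base stretches with another annotated gene. Its level, and its part in the sum and counts, is therefore uncertain. The mean of SLC39A14 rose by more FPKM than the importer sum did. Of the 10 importers, 2 rose and 6 fell at 12 h, and 5 rose and 5 fell at 24 h. Of all genes tested, 29.1% rose and 31.0% fell at 12 h, and 33.0% and 31.7% at 24 h. MTF1, the zinc-sensing transcription factor, rose by 0.34 and 0.15 from 3.00 FPKM.

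**Figure D3:**
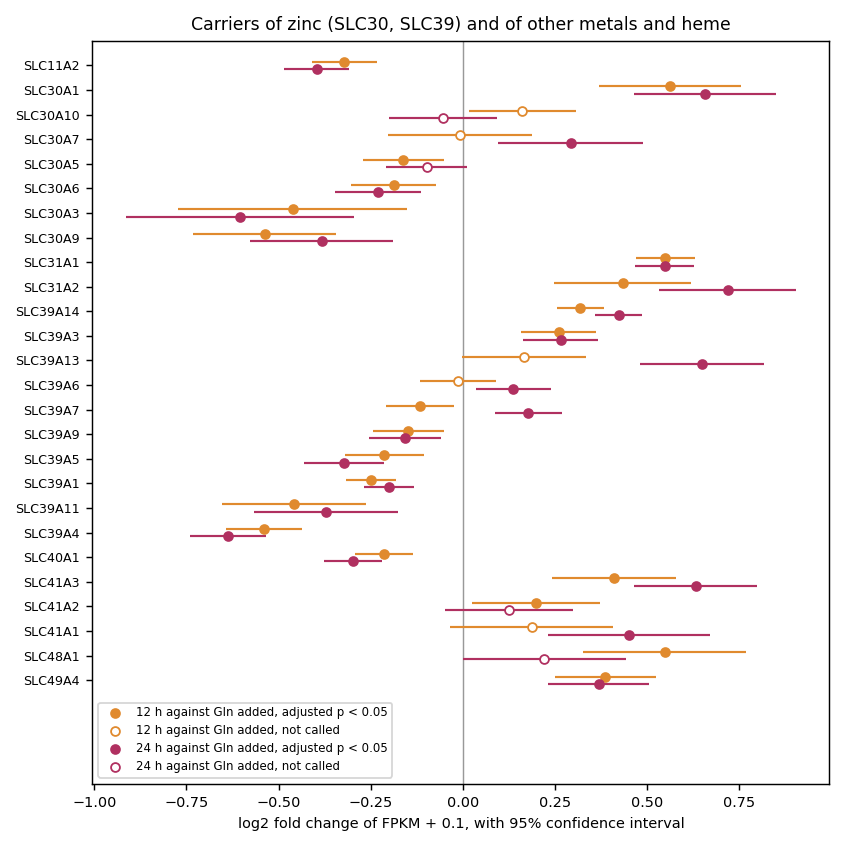
Log2 fold change on the log2(FPKM + 0.1) scale (points) with 95% confidence interval (lines) of the 17 zinc carriers and 9 carriers of other metals and heme, at 12 h and 24 h against Gln added. Filled points passed an adjusted p of 0.05. SLC30A1, SLC31A1, SLC31A2 and SLC41A3 lie to the right, and SLC11A2, SLC30A9, SLC39A4 and SLC40A1 to the left at both times.

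The copper carriers rose at both times. SLC31A1 (CTR1), the copper importer, went from 44.1, 44.9 and 43.4 FPKM to 67.0, 64.1 and 62.9 at 12 h and 65.7, 62.9 and 65.1 at 24 h, a rise of 0.55 at both times (adjusted p = 4.6e-07 and 3.2e-07). SLC31A2, a relative that acts on copper in the cell, rose by 0.43 and 0.72 from 2.54 FPKM, and 64.0% of its exonic bases lie under FKBP15 on the opposite strand. The copper pump ATP7B rose by 0.34 and 0.28. Of the magnesium carriers, SLC41A3 rose by 0.41 and 0.63 from 5.92 FPKM, and SLC41A1 by 0.45 at 24 h from 1.81 FPKM.

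The iron carriers SLC40A1 and SLC11A2 fell at both times. SLC40A1 (ferroportin), the iron exporter of animal cells, fell by 0.21 and 0.30, from 72.9 ± 0.401 FPKM to 62.9 ± 2.17 and 59.3 ± 1.42. SLC11A2 (DMT1), which brings ferrous iron into the cytosol, fell by 0.32 and 0.40, from 19.8 ± 0.619 to 15.9 ± 0.338 and 15.0 ± 0.320 FPKM. Their deprived libraries all lay below the Gln-added ones. TFRC, the transferrin receptor, fell by 0.49 and 0.65 and STEAP3, the endosomal iron reductase, by 0.62 and 0.55. The ferritin chains changed less. FTH1 was called higher at 12 h (0.13) and not called at 24 h (0.03), and FTL was not called at 12 h (−0.03) and called lower at 24 h (−0.14). SLC48A1, which releases heme from lysosomes, rose at 12 h (0.55) from 2.71 to 3.98 FPKM and stood at 3.15 FPKM at 24 h (0.22, adjusted p = 0.074).

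The carriers of small inorganic ions include anion exchangers and cation-chloride cotransporters. The chloride-bicarbonate exchanger SLC4A2 rose by 0.28 and 0.25 from 27.2 FPKM. SLC26A11, an anion carrier, rose by 0.60 and 0.72 from 4.60 FPKM, whereas SLC26A2 of the same family fell by 0.52 and 0.26 from 3.63 FPKM. Of the 4 SLC26 members, 2 rose and 1 fell at either time. Beside them, 29.1% of all genes tested rose and 31.0% fell at 12 h, and 33.0% and 31.7% at 24 h.

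The potassium-chloride cotransporters differed. SLC12A7 (KCC4), whose promoter is shown above, rose by 0.65 and 0.66 (adjusted p = 2.8e-06 and 1.9e-06), and SLC12A4 (KCC1) was at 10.8, 11.1 and 9.98 FPKM with Gln, 7.85, 7.60 and 8.12 at 12 h and 10.2, 9.20 and 9.73 at 24 h. SLC12A4 was thus lower at 12 h (−0.43, adjusted p = 7.2e-05) and at −0.13 at 24 h (adjusted p = 0.065). The sodium-potassium-chloride cotransporter SLC12A2 changed by 0.17 at 12 h (adjusted p = 0.11) and rose by 0.30 at 24 h from 1.84 FPKM. WNK4, a kinase that acts on these cotransporters, rose by 1.16 and 1.87 from 1.56 FPKM, and WNK1 by 0.22 and 0.12 from 22.5 FPKM. The other listed kinases did not rise throughout. STK39 was called lower at 12 h (−0.17) and higher at 24 h (0.21), and OXSR1 was not called at 12 h (−0.07) and was lower at 24 h (−0.16). ATP1B1, a sodium pump subunit, changed by 0.11 at 12 h (adjusted p = 0.11) and rose by 0.18 at 24 h.

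SLC17A2, of a family of phosphate and organic anion carriers, was the member with the largest rise at 12 h. It stood at 2.64, 3.31 and 2.92 FPKM with Gln, 6.82, 6.61 and 7.02 at 12 h, and 5.28, 4.76 and 4.53 at 24 h, and the 3 groups did not overlap (1.18 ± 0.08 and 0.70 ± 0.08, adjusted p = 8.3e-07 and 3.1e-05). SLC17A9, the vesicular nucleotide carrier, fell by 0.44 and 0.24 from 38.8 FPKM. Of the sodium-phosphate importers, SLC20A1 averaged 46.2, 44.5 and 45.7 FPKM and was not called (−0.05, 95% CI −0.14 to 0.03, and −0.02, −0.10 to 0.07), SLC20A2 fell by 0.31 and 0.37 from 15.0 FPKM, and SLC34A3 fell by 0.60 and 0.92 from 2.07 FPKM.

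The sodium-coupled vitamin C carriers moved in opposite directions. SLC23A1, the carrier of absorptive epithelia and liver, was at 9.36, 9.80 and 9.22 FPKM with Gln, 5.58, 5.91 and 5.22 at 12 h, and 3.86, 3.81 and 3.70 at 24 h. SLC23A2, the widely expressed one, was at 34.9, 36.3 and 34.9 FPKM with Gln, 53.1, 54.4 and 52.6 at 12 h, and 46.8, 49.4 and 48.9 at 24 h. In either gene the 3 groups were separate, with SLC23A1 lower by 0.75 ± 0.06 and 1.30 ± 0.06 (adjusted p = 1.2e-06 and 1.3e-08) and SLC23A2 higher by 0.59 ± 0.04 and 0.45 ± 0.04 (adjusted p = 2.3e-07 and 1.2e-06). Their sum went from 44.8 ± 1.08 FPKM to 58.9 ± 1.26 and 52.2 ± 1.37.

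**Figure D4:**
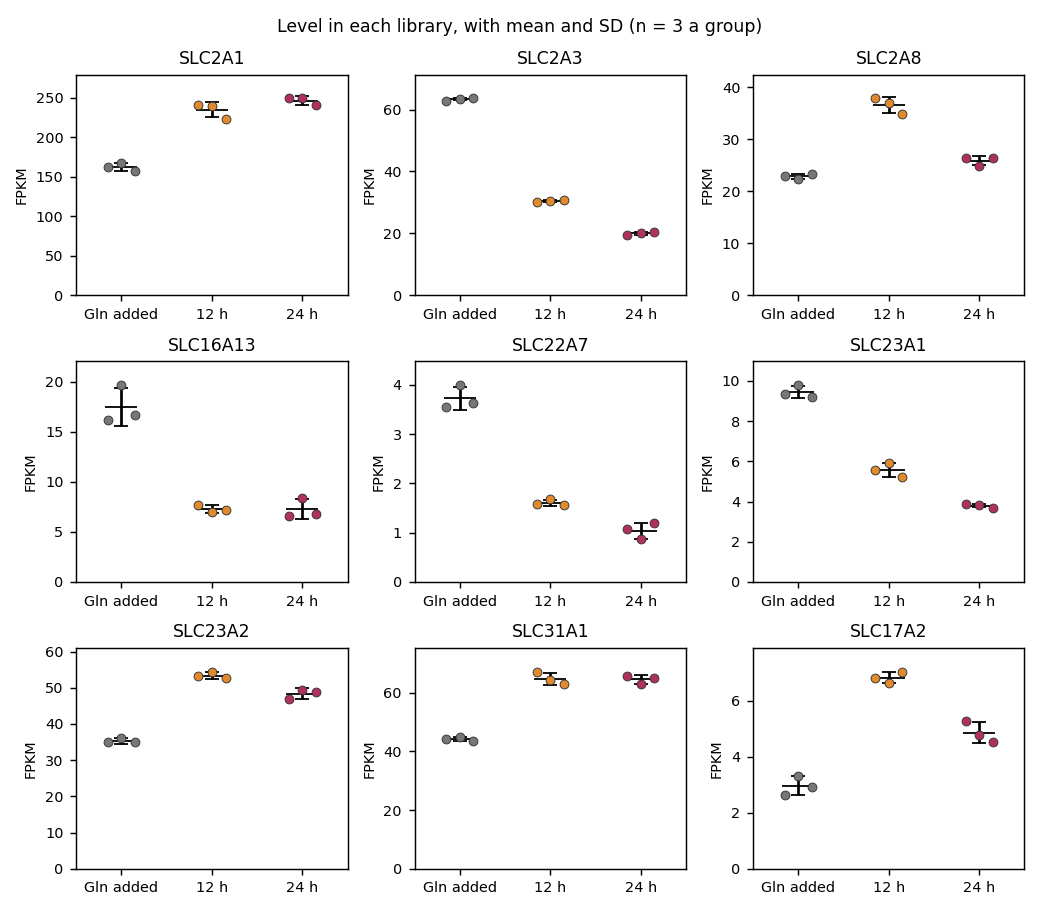
FPKM in each library (points, n = 3 a group) with the group mean and SD (bars) for 9 members, from Gln added to 12 h and 24 h of deprivation, each panel on its own linear axis from 0. SLC2A3, SLC22A7 and SLC23A1 step down at each time, SLC2A8 and SLC17A2 are highest at 12 h, and SLC2A1, SLC23A2 and SLC31A1 are higher at both times.

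Of the 4 SLC29 nucleoside carriers, 3 fell at 12 h and 4 at 24 h, where 31.0% and 31.7% of all genes tested fell. Their sum went from 69.0 ± 2.55 FPKM to 53.2 ± 2.87 and 45.7 ± 0.636. SLC29A1 fell by 0.64 and 0.85 (adjusted p = 4.7e-07 and 3.4e-08), and SLC29A2, its lower-affinity relative, by 0.92 and 0.83 from 6.18, 7.33 and 6.72 FPKM to 3.71, 3.58 and 3.23 and then 3.41, 4.06 and 3.77. SLC29A3, a lysosomal nucleoside carrier, was not called at 12 h (0.03) and fell by 0.26 at 24 h from 24.5 FPKM.

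Vitamin carriers of other families moved less. SLC5A6, which takes up biotin and pantothenate, rose from 83.1, 82.3 and 79.9 FPKM to 99.1, 98.5 and 91.4 at 12 h (0.24, adjusted p = 0.00053) and was at 87.6, 82.5 and 83.5 at 24 h, overlapping the Gln-added libraries. SLC52A2, the riboflavin carrier, rose by 0.35 and 0.29 from 20.4 FPKM, although genes on the opposite strand overlap its exons. SLC19A1, the reduced folate carrier, fell by 0.24 and 0.30 from 6.03 FPKM. The proton-coupled folate carrier SLC46A1 changed by −0.08 and −0.02 and the lysosomal peptide carrier SLC15A4 by 0.01 and 0.07, neither of them called. Genes on the opposite strand, SARM1 among them, overlap 60.6% of the exonic bases of SLC46A1.

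Of the organic ion and bile acid carriers, SLC22A7 (OAT2), which takes up organic anions in liver and kidney, fell most of all members at 24 h. Its libraries were at 3.54, 3.998 and 3.64 FPKM with Gln, 1.59, 1.68 and 1.55 at 12 h, and 1.07, 0.864 and 1.19 at 24 h. The groups were separate, and the fall was 1.16 ± 0.11 at 12 h and 1.75 ± 0.11 at 24 h (adjusted p = 6.3e-06 and 2e-07). The subunits of the bile acid exporter OSTα-OSTβ moved apart, SLC51A falling by 0.43 and 1.07 from 4.001 FPKM and SLC51B rising by 0.36 and 0.28 from 1.98 FPKM. SLC47A1 (MATE1), a proton-coupled exporter of cations, changed by −0.08 at 12 h (adjusted p = 0.055) and fell by 0.39 at 24 h, from 34.4 ± 0.209 to 26.2 ± 0.416 FPKM. The carnitine carrier SLC22A5 rose by 0.40 at 12 h (adjusted p = 0.0017) and stood at 0.17 at 24 h (adjusted p = 0.091). The export pump ABCC2 rose by 0.43 and 0.35 from 163 FPKM, and the anion carrier SLCO4C1 fell by 0.74 and 0.94 from 6.03 FPKM.

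SLC27A4, a fatty acid transport protein with acyl-CoA synthetase activity, was the only one of the 8 carriers of fatty acids and choline to rise. It went from 14.2, 13.5 and 12.8 FPKM to 21.5, 20.3 and 18.8 at 12 h and 23.7, 21.98 and 21.6 at 24 h (0.58 and 0.73, adjusted p = 1.3e-05 and 1.5e-06). SLC27A2 was not called at 12 h (0.00) and fell by 0.28 at 24 h. The 4 choline carrier-like SLC44 members summed to 29.9 ± 0.959 FPKM with Gln, 25.8 ± 0.854 at 12 h and 22.8 ± 0.292 at 24 h. SLC44A1, the choline carrier itself, fell by 0.20 and 0.19, and SLC44A4 fell by 0.29 and 0.68 from 10.7 FPKM.

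Of the members that are not carriers, SLC2A4RG, a transcription factor named for its action on SLC2A4, went from 65.4, 66.0 and 62.7 FPKM to 44.4, 43.3 and 40.2 and then 34.2, 33.9 and 29.8. It fell by 0.60 and 0.99, without overlap between any groups. SLC66A3 is not one of these non-carriers and was grouped under other members. At 1.47, 1.73 and 1.52 FPKM with Gln, it was at 0.806, 0.709 and 1.16 at 12 h (−0.78, adjusted p = 0.015). At 24 h it was at 0.870, 1.69 and 1.69, where its libraries were spread too widely to separate from the Gln-added ones.

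Between 12 h and 24 h of deprivation, a comparison without the Gln-added libraries, 16 members rose and 23 fell (9.57% and 10.5% of all genes tested). None of the 137 reached a 2-fold change, as 0.303% of all genes did, and the libraries of 53 members did not overlap, against 34.4% of all genes. The largest called rise was in SLC4A11, a carrier of the bicarbonate family, at 3.60, 3.46 and 3.19 FPKM with Gln, 2.65, 2.69 and 2.35 at 12 h, and 4.56, 4.02 and 3.80 at 24 h. Its 12 h libraries were below and its 24 h libraries above the Gln-added ones (0.66 ± 0.08 between the times, adjusted p = 0.00042).

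SLC39A13, a Golgi zinc carrier, rose by 0.48 between the times to 7.18 FPKM, SLC33A1 by 0.41, and SLC2A11 and SLC2A10 by 0.35 and 0.30, of which the call for SLC2A11 was lost under 12 of 19 alternative settings. The 16 rises, 41.0% of the calls, became 9 (25.7%) with median-ratio scaling and 19 (47.5%) with the same total per library, and 8 without replicate 1 at 12 h. The largest called falls were those of SLC51A (0.64), SLC2A3 (0.62), SLC22A7 (0.59), SLC23A1 (0.54) and SLC44A3 (0.51). SLC2A8, SLC2A14, SLC2A9 and SLC17A2 fell back by 0.50, 0.50, 0.44 and 0.48 from levels that had been above those with Gln. Of the 10 SLC2 carriers, 3 rose and 4 fell between the times, while none of the 5 SLC16 carriers was called (limma, adjusted p under 0.05). Of all genes tested, 9.57% rose and 10.5% fell between the times.

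Of 39 genes outside the rule that act with these carriers (chaperones, pumps, kinases and sensors), 33 passed the filter on low values. Of those, 14 rose (42.4%) and 9 fell (27.3%) at 12 h, and 16 rose (48.5%) and 10 fell (30.3%) at 24 h. The amino acid carrier families left out by the rule held 31 genes at 1 FPKM or more. At 12 h 21 of them rose (67.7%) and 8 fell (25.8%), with a median of 0.32. The SLC25 family held 37, of which 12 rose (32.4%) and 14 fell (37.8%) at 12 h, with a median of −0.09. Over all genes tested, 29.1% rose and 31.0% fell at 12 h, and 33.0% and 31.7% at 24 h. The members' counts at 12 h were 44 and 56 of 137, with a median of −0.05, and the difference between the lists was not tested.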

How the data were processed

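RNA was sequenced by the authors from HepG2 cells in 9 libraries. Per the labels and methods, total RNA was taken with TRIzol and aligned to GRCh38 with STAR; the submitters' processing notes name HTSeq and R 3.2.0. The labels and the methods name different library kits. The deposited table holds FPKM per gene symbol, made by the authors, and no raw counts. FPKM steps gave whole fragments for 100% of genes (within 0.02), from which depth was read. A gene's low level rests on few fragments, so its precision is lower.

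A mean of 0.5 FPKM over all libraries was required, which kept 11880 of 22587 genes and all 137 members; these were tested on log2(FPKM + 0.1), a scale that understates changes of low genes, with limma 3.58.1 (R 4.3.3; lmFit and eBayes with a trend, all groups fitted together), with p-values adjusted by Benjamini and Hochberg over every gene tested. The deposited values were otherwise used unchanged. The scripts were tested on simulated data. Intervals are 95% confidence intervals from the same fit.

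Members, gene lists and tests were chosen with earlier results of these data known. Named were, for 12 h and 24 h against Gln added, the 12 largest rises and 12 largest falls among called members whose libraries did not overlap, the 6 largest each way between the times, and a list of landmark carriers. Other members named as neighbours in a family or a summary were chosen after their values were seen. Gene positions and overlaps came from GENCODE 44 on GRCh38, promoter windows from RefSeq. Replicates differed by more than sampling noise (chi-square per degree of freedom 2.93 to 15.4). Alternatives were another pseudocount, filter, scaling, member threshold, fit, a replicate block, voom on recovered fragments, and leaving out each library. A few genes are counted in the lists but not reported here by name.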

Additional observations from a re-analysis of the deposited data

Results flagged for a closer look

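In 28 of the 61 named members the effect of deprivation differed between 12 h and 24 h by the direct test of the 24 h against the 12 h libraries (limma, adjusted p under 0.05), 9 being higher and 19 lower at 24 h. All values are log2 fold changes from 12 h to 24 h with n = 3 libraries a group. Some of the 61 were named because their change in this same comparison was among the largest called. Others were named for large changes at 12 h or 24 h. The share of 28 in 61 can therefore not be set beside a share of all genes. Of all 137 members, 16 rose (11.7%) and 23 fell (16.8%) between the times, where 9.57% and 10.5% of all genes tested rose and fell.

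Among sugar carriers, the change was −0.62 for SLC2A3, −0.50 for SLC2A14, −0.50 for SLC2A8, −0.26 for SLC5A9, 0.35 for SLC2A11, 0.30 for SLC2A10 and 0.28 for SLC2A6. Among carriers of vitamins, nucleosides and carboxylates it was −0.54 for SLC23A1, −0.14 for SLC23A2, −0.22 for SLC29A1, −0.19 for SLC5A6, −0.37 for SLC13A3 and 0.41 for SLC33A1. Metal and heme carriers gave 0.48 for SLC39A13, 0.10 for SLC39A14, 0.29 for SLC31A2, −0.22 for SLC30A10 and −0.33 for SLC48A1. Ion and phosphate carriers gave 0.66 for SLC4A11, 0.30 for SLC12A4 and −0.48 for SLC17A2. Organic ion and bile acid carriers gave −0.64 for SLC51A, −0.59 for SLC22A7 and −0.31 for SLC47A1, and lipid and choline carriers −0.28 for SLC27A2, −0.51 for SLC44A3 and −0.39 for SLC44A4. The transcription factor SLC2A4RG gave −0.39. SLC2A11, SLC30A10 and SLC5A9 each lost their call under 12 of the 19 alternatives, SLC39A14 under 8, SLC31A2 and SLC48A1 under 7, SLC23A2 under 3, SLC2A10 under 2 and SLC2A6 under 1.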

How the results depend on the processing

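Of 3477 values of the 61 named members under 19 alternatives, 3320 were counted as the same, 108 lost their call and 49 gained one. No value that was called with the main settings changed sign. A value not called with those settings was counted as the same whenever its sign changed, so the 3320 do not all share a direction. With a pseudocount of 1 FPKM, 2 members changed at least 2-fold at 12 h in place of 4. With a member threshold of 5 FPKM, fewer members were counted, so that at 12 h 64 members changed, 32 fell, 2 changed at least 2-fold and the median was 0.0011, at 24 h 32 fell, 3 changed at least 2-fold and the median was 0.036, and 15 fell between the times. With a threshold of 0.5 FPKM, 7 changed at least 2-fold at 12 h. The medians of −0.05 at 12 h and 24 h became −0.020 and −0.0020 with the same total per library and −0.034 and −0.065 with median-ratio scaling, which also gave −0.022 in place of 0.01 between the times. Rises between the times numbered 16, but 9 with median-ratio scaling and 10 with the 2 groups fitted alone (25.7% and 33.3% of calls against 41.0%), and 19 with the same total per library, 19 with the replicate block and 20 with voom; the cause was not tested. Without 1 library, the lowest and highest medians were −0.071 and −0.034 for 12 h and −0.049 and −0.027 for 24 h, and rises between the times numbered 8 (without replicate 1 at 12 h) to 14. No 2-fold change between the times was found by any fit run.

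Same-numbered libraries had correlated deviations of −0.033 to 0.062 between Gln added and either time, and of 0.252, −0.136 and 0.283 between 12 h and 24 h; since not every pair was over 0.1, replicate numbers were not taken as pairs. A fit with the replicate block called 102 members at 12 h, 100 at 24 h and 42 between the times, in place of 100, 99 and 39. With voom on recovered fragments 101, 103 and 43 members were called. Depth limits the lowest members most.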
